A study of Rattus norvegicus with 6 samples.

Results

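GCM-only regions are stretches of rat chromatin in which DNase I hotspots were called in both libraries of microglia given glioma-conditioned medium (GCM) and in none of the 4 other libraries. A hotspot is an interval in which DNase I cut ends are denser than around it. Members were the rows of the authors' count table that overlapped a hotspot of both GCM lists by 1 bp or more and no hotspot of the untreated and LPS lists. Of 129499 counted regions of build rn5, 2468 (1.91%) met this rule. Without untreated replicate 1, the library with the longest hotspot list, 4286 regions would have met it.

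DNase I sequencing was used to map open chromatin in microglia, the macrophages that reside in brain tissue, cultured from 1-day-old Wistar rats. The cells came from cerebral cortices of 10 to 15 pups per culture, grew for 2 weeks in medium with 10% serum and were plated alone for 48 h. The 3 groups were untreated cultures, cultures given 100 ng/mL of lipopolysaccharide (LPS, a bacterial cell wall component) from Salmonella enteritidis for 6 h, and cultures given GCM for 6 h, with 2 cultures in each. GCM was high-glucose medium with 10% serum taken after 24 h from C6, a rat glioma cell line, so it stands for the secretions of 1 tumour line, and the labels describe the controls only as untreated. The cells carried no transgene or other genetic change in the labels. The files assign no region to a gene, so the microglial label was not checked here against marker genes, and regions are named by position.

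DNase I cuts DNA most readily where nucleosomes are absent or displaced. In most cell types such sites are promoters, which lie at the starts of genes, and enhancers and insulators, which lie at a distance from them. In macrophages and microglia, lineage factors such as PU.1 keep many enhancers open in resting cells, and signals add further sites. LPS signals through the receptor TLR4 and activates inflammatory genes. Glioma cells secrete cytokines and matrix proteins that turn microglia towards a state that aids tumour invasion. A count from bulk nuclei cannot tell whether a site is open in more cells or cut more often in each cell.

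Libraries held 60.1 M (GCM replicate 1) to 120.5 M reads (GCM replicate 2), of which 7.14 M to 12.4 M fell in counted regions. The same 2 libraries had the highest and lowest share of reads in regions, 13.7% and 10.0%. Values below are counts and CPM, which are counts scaled to the M counts of each library in regions, after TMM scaling. The GCM-only regions took 0.403% and 0.418% of region counts in untreated cultures, and 0.390% and 0.379% in those given LPS. They took 0.569% (95% Wilson interval 0.564 to 0.574%) and 0.622% (0.618 to 0.627%) with GCM, and these intervals cover counting error only. The GCM libraries were thus the highest pair, and they also differed from each other by more than counting error. GCM replicate 2 was above GCM replicate 1 in 1586 members (64.3%), compared with 53.2% of all regions. This was not particular to the members. In regions with hotspots only in both LPS lists the medians of GCM replicates 2 and 1 were 1.88 and 1.60 CPM. With hotspots only in both untreated lists they were 1.55 and 1.35 CPM.

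Most GCM-only regions had counts in the other cultures as well. The density of cuts outside counted regions was not measured, so these counts do not tell whether the regions were open there. The median member had 18 and 12 counts in untreated cultures, 16 and 19 in LPS cultures and 20 and 32 in GCM cultures. In CPM these medians were 1.61 and 1.68 untreated, 1.62 and 1.55 with LPS, and 2.45 and 2.62 with GCM. Only 49 and 69 of the 2468 members had 0 counts in the untreated libraries, and 62 and 57 had 0 with LPS. Such a 0 allows up to 0.420 CPM in untreated replicate 2, which had the fewest counts in regions, and up to 0.242 CPM in LPS replicate 2, which had the most. Per kb of region the median level was 8.09 and 8.40 CPM untreated, 7.92 and 7.70 with LPS, and 11.6 and 12.3 with GCM. Regions with hotspots in all 6 lists, which number 69548, lay between 16.3 and 16.6 CPM per kb in every library. The members thus stayed below the constitutively open regions in median density, also with GCM.

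**Figure D1:**
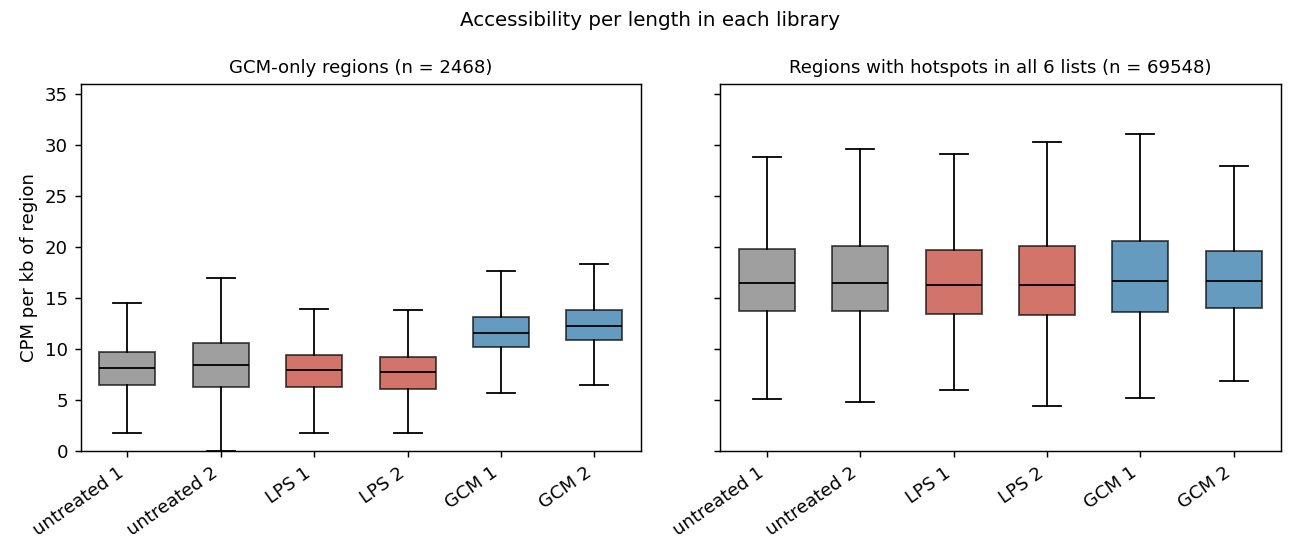
CPM per kb of region in each of the 6 libraries, for the 2468 GCM-only regions (left) and the 69548 regions with hotspots in all 6 lists (right). Boxes span the quartiles with the median as a line, and whiskers reach the last value within 1.5 box lengths, with values beyond them not drawn. The 2 GCM medians of the GCM-only regions (11.6 and 12.3) lie above the 4 other medians (7.70 to 8.40), while the medians on the right lie between 16.3 and 16.6.

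The rule chose members on hotspots of all 6 libraries, so the higher level with GCM is a description and no test of it is read. Both GCM libraries were above all 4 others in 1655 members (67.1%), beside 10.9% of all regions. They were above both untreated libraries in 1774 members (71.9%, beside 23.4% of all regions) and above both LPS libraries in 2084 (84.4%, beside 24.2%). The rule did not make every member higher with GCM: the GCM mean was at or below the untreated mean in 173 members, at or below the LPS mean in 112, and at or below both in 57. A hotspot present on 1 side and absent on the other was therefore not always a difference in counts.

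The size of the difference was moderate. Over all 2468 members the median level differed by 0.48 on the log2 scale between GCM and untreated (a fold of 1.40) and by 0.55 between GCM and LPS (a fold of 1.47). Over the 2141 members that passed the filter on low counts, the median log2 difference was 0.55 between GCM and untreated (quartiles 0.34 and 0.79) and 0.62 between GCM and LPS (0.44 and 0.85), against medians near 0 over all 126284 regions fitted. Between single libraries the median over all members ran from 0.395 to 0.536 for GCM against untreated and from 0.498 to 0.583 for GCM against LPS. Only 258 members (12.1% of those fitted) exceeded a 2-fold difference from untreated, and 1 member was over 2-fold lower. The remaining 327 members did not pass the filter and have no fitted difference.

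In the edgeR quasi-likelihood test over all fitted regions, 156 members (7.29% of the 2141) had a Benjamini-Hochberg adjusted p under 0.05 with GCM higher than untreated, and 0 with GCM lower. The background was 1.57% of all regions, 1.34% higher and 0.231% lower. For GCM against LPS these counts were 447 (20.9%) higher and 0 lower, beside 8.58% of all regions, 3.75% higher and 4.84% lower. At an unadjusted p under 0.05 there were 898 higher and 1 lower against untreated (42.0% of members, beside 15.1% of all regions). Against LPS there were 1186 higher and 0 lower (55.4%, beside 22.0%). Since the rule used these libraries, nothing is read from these counts. They also rested on single libraries, as did the calls over all regions. Against untreated, most calls among members and over all regions were lost without untreated replicate 1, untreated replicate 2 or GCM replicate 2. Most stayed without GCM replicate 1. The members' median log2 difference was 0.52 without untreated replicate 1 and 0.58 without untreated replicate 2. It was 0.58 without GCM replicate 1 and 0.50 without GCM replicate 2. Against LPS, 278 and 91 were called without LPS replicates 1 and 2 (6.79% and 3.83% of all regions), and 290 and 69 without GCM replicates 1 and 2 (5.57% and 3.11%). DESeq2 called 0 members against untreated (3 of all regions) and 2 against LPS (712). A region to which DESeq2 gave no adjusted p counts as not called. The 2 comparisons share the GCM libraries. In the authors' deposited table of GCM against untreated, 148 members were higher and 0 lower at an FDR under 0.05, with a median log2 fold change of 0.56 over the 2147 members it lists, beside 1889 higher and 414 lower of all 126640 regions in it.

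**Figure D2:**
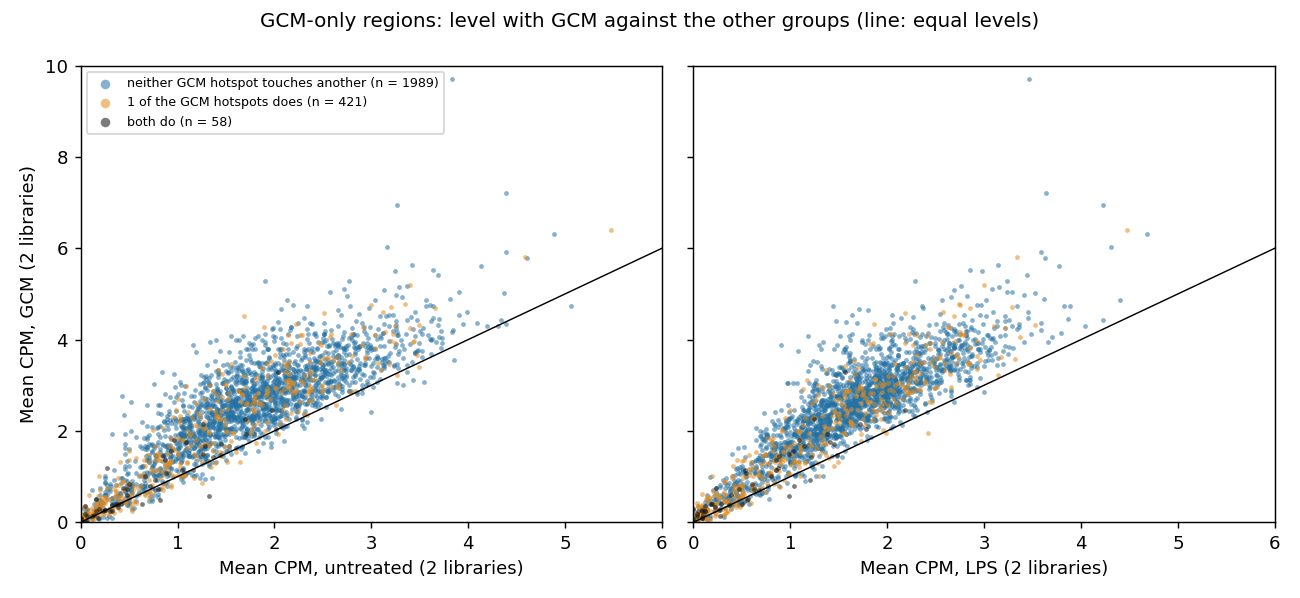
Mean CPM of the 2 GCM libraries (vertical axis) against the mean of the 2 untreated libraries (left) and of the 2 LPS libraries (right) for each GCM-only region. The line marks equal levels, and colours show whether neither (1989), 1 (421) or both (58) of the GCM hotspots of a region also touch a hotspot of another library. Most points lie above the line, with 173 members at or below it on the left and 112 on the right.

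The member with the highest GCM level in CPM, not scaled to width, was chr17:1378087-1378679, 593 bp wide. It had 45 and 26 counts untreated, 45 and 29 with LPS, 67 and 137 with GCM, that is 4.02 and 3.64, 4.56 and 2.36, and 8.22 and 11.2 CPM. Both GCM libraries lay above the 4 others, which overlapped one another, and the GCM mean of 9.72 ± 2.11 CPM (SD, n = 2) was 2.54 times the untreated mean. At chr2:11061418-11062055, the widest member with 638 bp, the levels were 4.29 and 4.48 CPM untreated, 3.85 and 3.42 with LPS, and 6.63 and 7.77 with GCM. The groups did not overlap here, with LPS lowest and GCM highest.

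At chr4:149437381-149437908 the untreated libraries had 3.04 and 3.50 CPM, LPS 4.46 and 3.99, and GCM 6.38 and 7.53. Here LPS lay between the other groups. The 10 members with the highest GCM level were spread over 9 chromosomes, were 289 to 638 bp wide and had GCM means of 5.63 to 9.72 CPM. Both GCM libraries were above the 4 others in all 10, which were picked by GCM level, so nothing is read from this. The fold over untreated ran only from 1.17 to 2.54. At the low end of that range, chr6:143955262-143955838 had 5.63 and 5.32 CPM untreated, 4.46 and 4.48 with LPS, and 6.26 and 6.55 with GCM.

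Among members with at least 20 counts in each GCM library, chr2:95432933-95433205 stood highest over the 4 other libraries, with a fitted fold of 3.66. Its counts were 18 and 5 untreated, 9 and 11 with LPS, and 30 and 50 with GCM, or 1.61 and 0.70, 0.913 and 0.896, and 3.68 and 4.09 CPM. The nearest region with hotspots in all 6 lists was 159 kb away. The untreated and LPS libraries overlapped, and the GCM libraries were more than 2-fold above every one of them.

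The next was chr14:24863950-24864166, with 0.715 and 0.140 CPM untreated, 1.32 and 1.06 with LPS, and 3.07 and 2.45 with GCM. Its 3 groups did not overlap, and its untreated values rest on few counts. The third, chr11:53936183-53936398, had 1.25 and 2.10 CPM untreated, 1.62 and 0.733 with LPS, and 2.58 and 5.56 with GCM, so the 2 GCM libraries differed from each other by more than the lower one differed from the highest untreated library. At chr18:56126032-56126297 the levels were tighter, with 1.34 and 1.54 CPM untreated, 1.01 and 1.14 with LPS, and 3.56 and 3.93 with GCM. Of the 10 members named by this rule, only chr17:1378087-1378679 was also among the 10 with the highest GCM level.

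**Figure D3:**
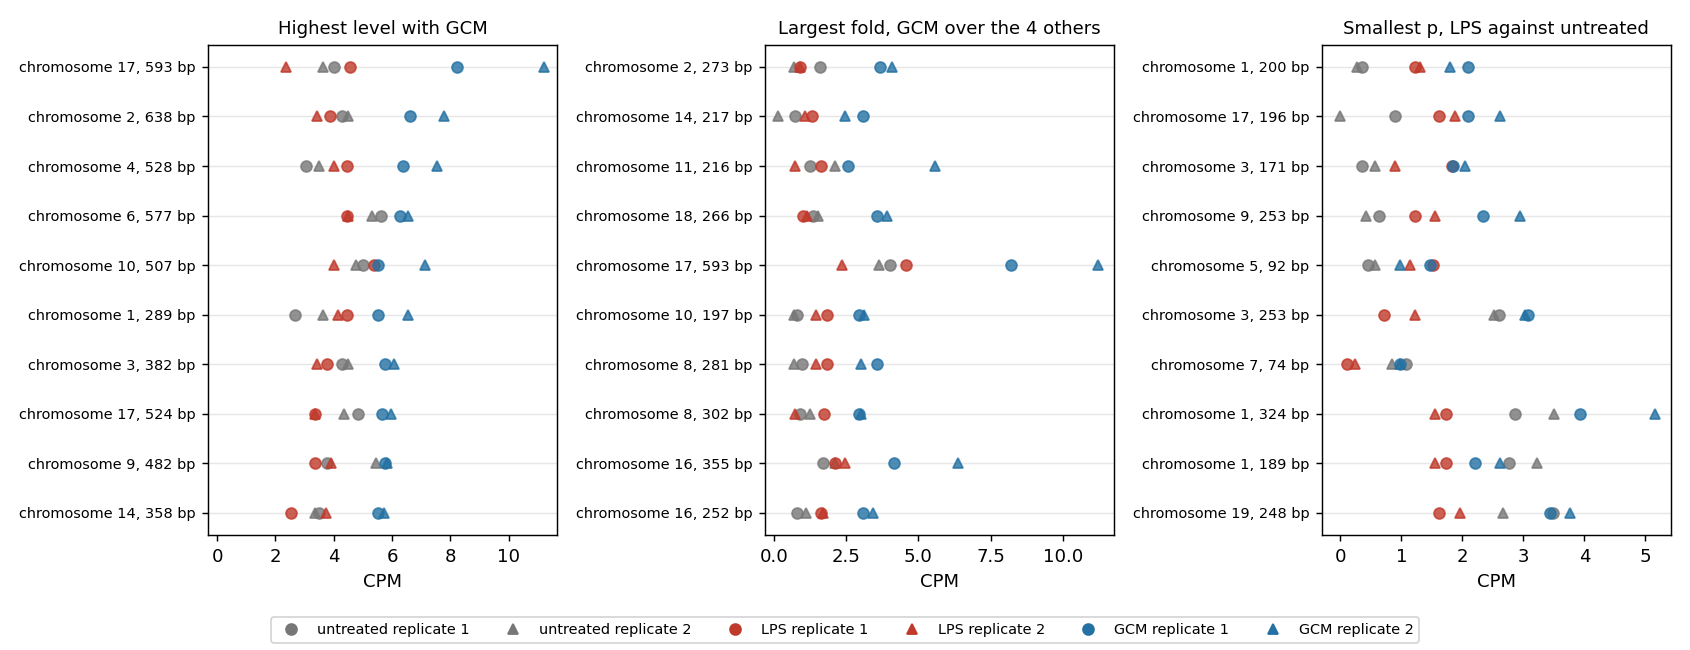
CPM of single libraries (circles replicate 1, triangles replicate 2, grey untreated, red LPS, blue GCM) at the 10 members with the highest GCM level, the 10 with the largest fold over the 4 other libraries among members with at least 20 counts in each GCM library, and the 10 with the smallest p for LPS against untreated. In the first 2 panels both blue points lie right of all others in every row. Those members were picked by their GCM levels, so nothing is read from this. In the right panel the LPS points lie on 1 side of both untreated points, as the rule for that panel asked.

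For LPS against untreated the rule asked the same of both groups, no hotspot in either. The lists were of unequal length, 160868 and 107489 hotspots untreated and 138554 and 152869 with LPS. The rule thus filtered the 4 libraries unevenly, and the medians below are a description. Under TMM scaling, though not when libraries were scaled to all their reads, the members lay slightly lower with LPS than untreated in median. The median log2 difference was -0.08 over the 2141 fitted members (quartiles -0.30 and 0.14) and -0.00069 over all fitted regions. All 4 pairings of an LPS with an untreated library gave a median over the members below 0, from -0.11 to -0.027. With libraries scaled to all their reads the members' median was 0.0044 and that of all regions 0.088, so the members still lay below all regions but not below 0. The LPS mean was below the untreated mean in 1456 of the 2468 members (59.0%), beside 50.1% of all regions.

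The edgeR quasi-likelihood test called 6 of 2141 members (0.280%) at an adjusted p under 0.05, 3 higher and 3 lower, beside 9.85% of all regions (6.71% higher and 3.14% lower). Both LPS libraries lay above both untreated ones in 318 members (12.9%, beside 27.6% of all regions) and below both in 619 (25.1%, beside 26.2%). At an unadjusted p under 0.05 there were 38 members higher and 61 lower, together 4.62% of the members beside 23.6% of all regions. Without untreated replicate 1 only 1 member was called (3.48% of all regions), and DESeq2 called 0 (0.610% of all regions). Some members, among them chr1:226897906-226898105, got no adjusted p in DESeq2 and count as not called. The authors' deposited table of LPS against untreated lists 2 members as higher and 5 as lower at an FDR under 0.05, beside 8138 and 4219 of its 126640 regions.

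By asking for no hotspot in either group, the rule kept members low in both, so the small share called is not read as a property of the members. Counts were also low: 57.8% of members had at least 10 counts in every library, compared with 90.9% of all regions. The members' median of 12 to 19 counts in the untreated and LPS libraries stood beside 36 to 63 over all regions. The part of these lower counts in the number of calls was not tested.

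The member with the smallest p among those higher with LPS was chr1:226897906-226898105. It had 4 and 2 counts untreated, 12 and 16 with LPS, and 17 and 22 with GCM, and its CPM rose from 0.319 ± 0.055 untreated to 1.26 ± 0.0613 with LPS (SD, n = 2). The log2 difference was 1.91 (SE 0.49, edgeR adjusted p = 0.0132), and the adjusted p ran from 0.0109 to 0.124 over 12 alternatives. The call was lost without untreated replicate 1, without untreated replicate 2 and without LPS replicate 2. The LPS level lay between the untreated level and the GCM level of 1.94 ± 0.202 CPM.

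At chr17:55386769-55386964 the counts were 10 and 0 untreated, 16 and 23 with LPS, and 17 and 32 with GCM (log2 difference 1.67, edgeR adjusted p = 0.0171). The untreated libraries differed from each other here, and without untreated replicate 2, which had the count of 0, the log2 difference was 0.97 and the call was lost (adjusted p = 0.280). It was also lost without LPS replicate 2 (adjusted p = 0.118). Without untreated replicate 1 only the count of 0 is left in that group, so the fitted difference then gives no size. Counts at chr3:52520132-52520302 were 4 and 4 untreated, 18 and 11 with LPS, and 15 and 25 with GCM (log2 difference 1.56, edgeR adjusted p = 0.0333), and leaving out LPS replicate 1 brought the difference to 1.01 and ended the call (adjusted p = 0.390). The call also ended without untreated replicate 1 (adjusted p = 0.338) and without untreated replicate 2 (0.0855). In all 3 regions both LPS and GCM libraries lay above both untreated ones, although no hotspot was called with LPS.

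Among members lower with LPS, chr3:33824550-33824802 had 29 and 18 counts untreated, 7 and 15 with LPS, and 25 and 37 with GCM. Its CPM fell from 2.56 ± 0.0523 to 0.966 ± 0.362 with LPS (log2 difference -1.36, SE 0.33, edgeR adjusted p = 0.00581), while its GCM level was 3.05 ± 0.0287. The call was lost without untreated replicate 1, without LPS replicate 1 and in DESeq2 (adjusted p = 0.298). At this region GCM was only 1.19 times untreated but 3.15 times LPS.

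Counts at chr7:36383879-36383952, a stretch of 74 bp, were 12 and 6 untreated, 1 and 3 with LPS, and 8 and 12 with GCM (log2 difference -2.36, edgeR adjusted p = 0.00963). The LPS level rests on 4 counts in all, and the call was lost without LPS replicate 1 (adjusted p = 0.0921). This region was not fitted with a minimum count of 20, with only the 4 libraries compared or without untreated replicate 1. DESeq2 gave it no adjusted p. The GCM level of 0.982 CPM was within the untreated pair of 1.07 and 0.840. At chr1:105335041-105335364 the counts were 32 and 25 untreated, 17 and 19 with LPS, and 32 and 63 with GCM (log2 difference -0.93, edgeR adjusted p = 0.0320). That call was lost when any 1 of the 4 untreated and LPS libraries was left out, with scaling to all reads, and in DESeq2 (adjusted p = 0.508).

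The other 4 named members had edgeR adjusted p from 0.0515 to 0.0559 and did not pass the threshold in the main fit. At chr9:52401347-52401599 the levels were 0.626 and 0.420 CPM untreated, 1.22 and 1.55 with LPS, and 2.33 and 2.95 with GCM. At chr1:272736420-272736608 they were 2.77 and 3.22 untreated, 1.72 and 1.55 with LPS, and 2.21 and 2.62 with GCM, so this member was lower with GCM than untreated. Its call turned on the setting. The edgeR adjusted p was 0.0487 with libraries scaled to their counts in regions and 0.135 with scaling to all reads.

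GCM-only did not mean that no other library had a hotspot nearby. A counted region is the part of a hotspot shared by both libraries of a group, so a GCM hotspot can reach beyond its region. In 1989 members (80.6%) neither GCM hotspot touched a hotspot of another library. In 421 (17.1%) 1 of the 2 did, and in 58 (2.35%) both did, outside the counted stretch. In the last class the median region was 65.5 bp wide, held a median of 10.4% and 9.63% of its 2 GCM hotspots, and lay 0.280 kb from a region with hotspots in all 6 lists. These 58 members are thus small parts of wider hotspots, and both GCM libraries were above all others in 13 of them (22.4%), compared with 1406 (70.7%) of the 1989 and 236 (56.1%) of the 421. The share over all regions was 10.9%.

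The 1989 members with GCM hotspots of their own held a median of 85.6% and 76.8% of those hotspots, with a median width of 209 bp. Their median levels were 1.70 and 1.68 CPM untreated, 1.72 and 1.63 with LPS, and 2.58 and 2.70 with GCM. All 6 members called for LPS against untreated were among them, and their median log2 difference for that contrast was -0.09. The median log2 difference between GCM and untreated was 0.56 in these members, 0.53 where 1 hotspot touched another and 0.43 where both did.

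Hotspots behind the members were weak in their own lists. The authors' score, whose definition is not stated and which is used here only within a list, had a median of 5.03 in the members' hotspots of GCM replicate 1 and 7.73 in the whole list. In GCM replicate 2 these medians were 4.93 and 7.24. Of the members, 184 (7.46%) and 290 (11.8%) had scores above the median of the 2 lists. The highest member scores in the 2 lists, 50.3 and 41.9, belonged to members with 1 GCM hotspot that touched another. The whole lists reached 92.2 and 78.8. Ordered instead by the lower of their ranks in the 2 lists, the first 5 members were 2 to 180 bp wide, both of their GCM hotspots touched others, and 1 of them, chr19:54141763-54141764, had 0 counts in every library. Another, chr10:67584550-67584729, had 1.79 and 2.24 CPM untreated, 1.52 and 2.04 with LPS, and 2.21 and 1.88 with GCM, so its groups overlapped. In members whose GCM hotspots touched no other, scores did not exceed 10.9 and 16.0.

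Most hotspots found with GCM alone were not shared between the 2 cultures. In GCM replicate 1, 14301 hotspots (11.4% of its list) touched none of the 4 other lists, and 2183 of these (15.3%) touched a hotspot of GCM replicate 2. In GCM replicate 2, 20987 (15.4%) touched none of the 4, and 2214 of these (10.5%) touched a hotspot of GCM replicate 1. The rule admits only the shared ones.

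Members just inside the rule were picked for low scores, while regions just outside it were picked for 1 more hotspot with no cut on score. The 2 sets are therefore described, and no effect of a threshold is read from them. Those just inside had lower median CPM in every library and were narrower (median 161.5 bp against 229 bp). The 124 members just inside, with the lowest 5% of score ranks, had median levels of 1.25 and 1.26 CPM untreated, 1.37 and 1.22 with LPS and 1.96 and 2.05 with GCM. The 4428 regions just outside had hotspots in both GCM lists and exactly 1 other. Their medians were 2.24 and 2.10 CPM untreated, 2.03 and 1.96 with LPS, and 2.82 and 2.95 with GCM. The median log2 difference between GCM and untreated was 0.48 just inside and 0.36 just outside. The latter pools unlike regions: it was 0.21 in the 1818 whose other hotspot was in untreated replicate 1 and 0.24 in the 295 with one in untreated replicate 2. It was 0.57 and 0.49, above the value just inside, in the 1191 and 1124 with one in LPS replicates 1 and 2. The untreated lists held 160868 and 107489 hotspots, the longest and the shortest of the 6.

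The members were narrow. Their median width was 202 bp (quartiles 144 and 259, range 1 to 638), compared with 239 bp for 7283 LPS-only regions and 193 bp for 2886 untreated-only regions chosen by the same rule. Regions with hotspots in all 6 lists had a median of 549 bp. Only 273 members reached 300 bp, while 177 were under 50 bp, of which 17 were 1 or 2 bp wide. Of those 177, 1 passed the filter on low counts. No test was made of these widths, since regions are not replicates of a condition.

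Both GCM libraries were above the 4 others in 20.3% of members under 50 bp, in 64.8% of those from 100 to under 200 bp and in 82.1% of those of 300 bp or more. The share over all regions of any width was 10.9%. It was not counted for all regions of like width, so the rise is not read as particular to the members. The ratio of summed CPM between GCM and untreated was 1.36 in the narrowest of these classes, 1.48 in the middle one and 1.43 in the widest. The share thus rose with width while the ratio stayed within 1.30 to 1.48 over 5 width classes, and the narrow members rest on few counts, with 20 members at 0 in every library and 78 under 10 counts over all 6 libraries.

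**Figure D4:**
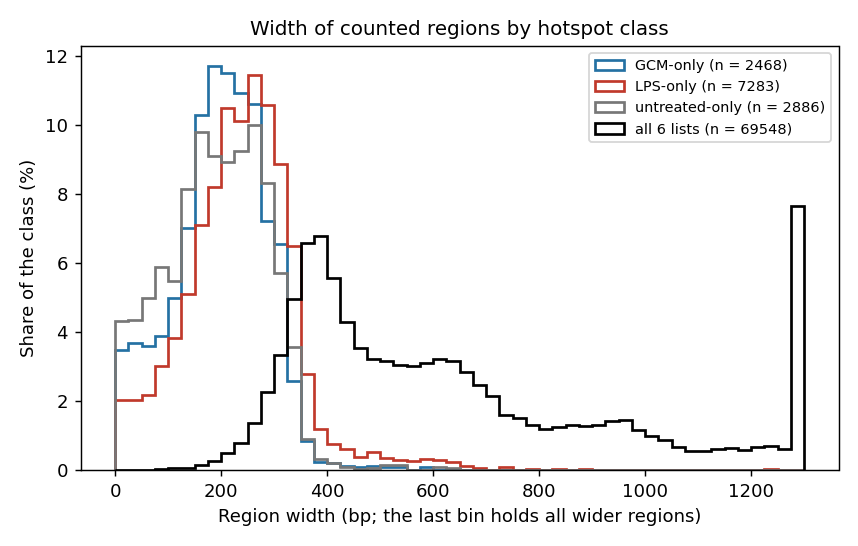
Width of counted regions in bp (horizontal axis) and the share of each class in % per bin of 25 bp (vertical axis), for GCM-only, LPS-only, untreated-only and constitutively open regions. The last bin holds all wider regions. The GCM-only regions peak near their median of 202 bp, left of the regions with hotspots in all 6 lists (median 549 bp).

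Part of the members lay beside constitutively open chromatin. The median gap to the nearest region with hotspots in all 6 lists was 3.35 kb (quartiles 0.806 and 13.2 kb), compared with 4.24 kb for LPS-only and 9.26 kb for untreated-only regions, and 4.06 kb from one region of all 6 lists to the next. In the 1989 members whose GCM hotspots touched no other hotspot the median gap was 4.64 kb, above the LPS-only value. It was 0.486 kb in the 421 members where 1 did and 0.280 kb in the 58 where both did. The LPS-only and untreated-only regions were not split in this way. Within 0.5 kb of a region with hotspots in all 6 lists lay 441 members (17.9%), compared with 10.5% of LPS-only and 8.39% of untreated-only regions. Within 10 kb the shares were 70.7%, 70.2% and 51.7%, so the shares of GCM-only and LPS-only regions were apart at 0.5 kb and close at 10 kb. A hotspot of at least 1 of the 4 other libraries lay within 0.5 kb of 966 members (39.1%) and within 2 kb of 1710 (69.3%). For 758 members there was none within 2 kb.

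The level of the members varied little with this gap. Summed over members, accessibility with GCM was 11.9 CPM per kb in the 441 members within 0.5 kb and 12.3 CPM per kb in the 201 members beyond 50 kb. In untreated libraries these values were 8.33 and 7.96, and with LPS 8.05 and 7.23. The median log2 difference of LPS from untreated was -0.02 within 0.5 kb, -0.17 at 10 to 50 kb and -0.16 beyond 50 kb. The farthest member, chr11:7858804-7859042, was 1952 kb from a constitutive region and had 2.06 and 1.96 CPM untreated, 2.23 and 1.79 with LPS, and 2.70 and 2.78 with GCM. The nearest, chr17:32764353-32764454, was 0.020 kb away and had 0.805 and 0.280 CPM untreated, 0.406 and 0.407 with LPS, and 0.614 and 0.818 with GCM, with overlapping groups.

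**Figure D5:**
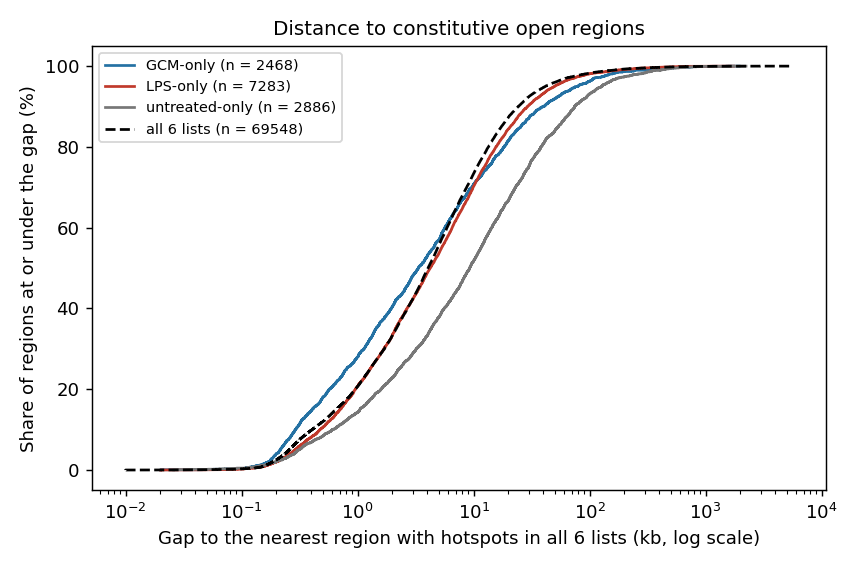
Share of regions in % (vertical axis) at or under a given gap in kb to the nearest region with hotspots in all 6 lists (horizontal log axis), for 4 classes of regions. The GCM-only curve lies left of the others at short gaps (17.9% within 0.5 kb), meets the LPS-only curve near 10 kb (70.7% and 70.2%), and the untreated-only curve lies to the right (51.7%).

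The constitutive regions nearest to the members were also examined. The rule asked for no difference at them, but they were picked through the members. Some lie beside GCM hotspots that reach beyond their member, so they are not free of the choice of members. These 2367 regions had a median log2 difference between GCM and untreated of 0.03, beside -0.01 for all 69546 fitted regions of that class. In the edgeR test 59 of them (2.49%) were higher with GCM and 1 was lower, beside 1.03% and 0.0633% of the class. For GCM against LPS 157 (6.63%) were higher and 33 (1.39%) lower, beside 3.49% and 2.25%. For LPS against untreated the shares were 3.93% higher and 3.04% lower, beside 3.68% and 2.71%. Of the 1384 such regions within 5 kb of a member, 26 (1.88%) were higher and 0 lower for GCM against untreated. For GCM against LPS 90 of these (6.50%) were higher and 16 (1.16%) lower. No test of these shares against the class was made.

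Members rarely lay next to one another. The median distance to the nearest other member was 215 kb, and 156 members (6.32%) had another within 10 kb, compared with 15.4% of the more numerous LPS-only regions and 7.17% of untreated-only regions. They formed 77 clusters, of which 75 were pairs and 2 held 3 members. The cluster at chr8:92837811-92850264 spanned 12.5 kb and held 5 counted regions, 1 of them with hotspots in all 6 lists. Summed over its 3 members the level was 3.58 and 3.22 CPM untreated, 3.75 and 3.83 with LPS, and 5.89 and 6.14 with GCM. The groups did not overlap, with untreated lowest and GCM highest.

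The other cluster of 3, at chr19:65088465-65101401, had summed levels of 9.21 and 10.5 CPM untreated, 6.90 and 8.48 with LPS, and 11.2 and 11.9 with GCM. Here LPS was lowest, without overlap. Of the 75 pairs, equal in size, 3 were taken by position alone. The closest of these 3 was chr1:198406810-198407808, with 3.49 and 2.80 CPM untreated, 4.06 and 2.69 with LPS, and 6.26 and 6.30 with GCM. The untreated and LPS values overlapped there, and the GCM libraries stood above both.

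Members occurred on all 21 chromosomes of the table. Their share of the counted regions of a chromosome ran from 1.29% on chromosome 12 to 2.93% on chromosome X, where 59 of 2013 regions were members. On chromosome X the share of LPS-only regions was 4.72%, beside 5.62% over all chromosomes, and that of untreated-only regions 1.14%, beside 2.23%.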

How the data were processed

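Open chromatin was measured in 6 libraries, 2 per group. The submitters' processing notes list build rn5, DiffBind, edgeR, Picard 1.95, SAMtools, Bowtie 1.1.2 and cutadapt 1.8.3, without order or settings. The authors deposited raw counts per region, and hotspot lists for each library with an authors' score (names state an FDR of 0.01). In their comparison tables the columns are, per the file headers, CPM (scaled by the authors to whole libraries), log2 fold change, log2 mean CPM, the likelihood ratio as a test score, and the p-value with its FDR. Other deposited columns, such as widths and CPM per base, were not used.

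Counts were fitted in edgeR 4.0.16 (R 4.3.3) by the quasi-likelihood test, two-sided, with TMM scaling (factors 0.986 to 1.01), a minimum count of 10 in its filter, all 6 libraries in 1 fit, and Benjamini-Hochberg adjustment over 126284 regions. The common biological coefficient of variation was 5.63%. The test was tested on simulated data. Log levels of all members used a prior count of 2. Intervals were handled in Python 3.11.15 with pandas 2.3.3 and numpy 2.4.6, and positions count the first base as 1. p-values rest on the spread between the 2 libraries of each group, pooled over the 3 groups and moderated by the spread of all regions.

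Named regions were the 10 members with the highest GCM level, the 10 with the largest fold over the 4 other libraries among those with at least 20 counts in each GCM library, the 5 higher and 5 lower with the smallest p for LPS against untreated, the 5 placed highest by the lower of their score ranks in the 2 GCM lists, the 5 widest, the 5 largest clusters, and the 3 nearest to and 3 farthest from a constitutive region. Ties were broken by position. Most named regions are given by range. Members, lists and rules were chosen with earlier results of these data known. Alternatives were other scalings, filters and tools (DESeq2 1.42.0), a replicate block, libraries left out and stricter rules for members. Regions without an adjusted p in DESeq2 count as not called. No sequence, motif or gene near a region was used here, since no genome of build rn5 was at hand.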

Additional observations from a re-analysis of the deposited data

How the results depend on the processing

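The number of GCM-only regions was 1502 when no other hotspot was allowed within 0.5 kb, 758 at 2 kb and 577 without hotspots in the first quartile of scores of a GCM list, and ran from 2468 to 4286 with 1 library left out, the GCM lists having no effect since a region needs both libraries of a group. Their median width was 239 bp without that quartile, and the median gap to a constitutive region 6.10 kb with no other hotspot within 0.5 kb and 11.7 kb with none within 2 kb. The share with another member nearby was 3.89% within 5 kb and 9.89% within 20 kb. For LPS against untreated, the members called numbered 11 with a replicate block (11.4% of all regions called), 0 in DESeq2 (0.610%) and 1 to 8 with 1 library left out (3.48 to 10.2%), and their median log2 difference was 0.0044 with whole-library totals and -0.116 to -0.0583 with 1 library left out. The median for GCM against LPS was 0.52 with whole-library totals, where that of all regions was -0.06. The median for GCM against untreated ran from 0.50 to 0.58 with 1 library left out, and the members called numbered 70 with whole-library totals (0.340% of all regions called) and 0 in DESeq2 (0.00232%), and for GCM against LPS 195 (5429 of all regions) and 2 (712). With only the 1989 members whose GCM hotspots touched no other, an alternative chosen after seeing the data, 1829 members were fitted. Of these, 6 were called for LPS against untreated, and 143 and 400 for GCM against untreated and LPS. The shares called over all regions were 9.85%, 1.57% and 8.58%. Nothing is read from the 2 GCM counts, since the rule used these libraries. The cause of these shifts was not tested.

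Replicate numbers are shared between groups, but no label says that they mark a shared culture or day. Across all fitted regions the difference between replicates correlated at 0.0484 between untreated and LPS, 0.100 between untreated and GCM and 0.000999 between LPS and GCM. The replicate block gave 182 and 481 calls among members for GCM against untreated and LPS (2.64% and 10.0% of all regions), and named members gained or lost no call with it apart from 2 that passed the threshold, chr5:148190208-148190299 and chr1:272736420-272736608. Requiring hotspots to cover more of a region changed nothing by construction. Motif and gene results were not run. Low counts limit the members: 1427 of 2468 had at least 10 counts in every library.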
